A study of Sus scrofa with 41 samples.

Results

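TNNT3, TNNI2, TNNC2, ATP2A1 and ACTA1 are 5 of the 25880 genes counted in psoas major muscle, and they were taken by their pig gene symbols. Each symbol matched 1 Ensembl gene, and all 5 passed the filter on low counts that left 11146 genes for testing. The muscles came from 41 uncastrated male pigs slaughtered at about the same weight, 13 Danbred_Duroc (called Duroc here) and 28 Danbred_Landrace (called Landrace), which were fed freely and received no treatment. The Duroc pigs were 131 to 156 days old and had a feed conversion ratio (FCR) of 1.83 to 2.18, and the Landrace pigs were 147 to 166 days old with an FCR of 1.92 to 2.25. One library was made from each pig, and the pigs fell into 5 batches, which the study's methods tie to the days of slaughter. Batch 1 held 1 Duroc pig, batch 2 held 3 Duroc and 12 Landrace pigs, batch 3 held 2 and 7, batch 4 held 3 and 2, and batch 5 held 4 and 7. Muscle was taken whole, so that the fibre types and the other cells of each sample were sequenced together.

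Skeletal muscle contracts when calcium binds the troponin complex on the thin filament and lets myosin reach actin. The complex has a subunit that binds tropomyosin, a subunit that inhibits the filament and a subunit that binds calcium, and fast and slow fibres build each of them from a different gene. Relaxation follows when a calcium pump returns calcium to the sarcoplasmic reticulum, and fast and slow fibres again use different pump genes. Skeletal alpha actin is shared by both fibre types and is the main actin of adult skeletal muscle, while the cardiac form is the counterpart in the heart and in developing muscle.

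TNNT3 (ENSSSCG00000031903), the tropomyosin-binding troponin T of fast fibres, lies on chr2:1297826-1316865 of Sscrofa11.1 in the RefSeq annotation. TNNI2 (ENSSSCG00000033260), the inhibitory troponin I of fast fibres, lies on the same chromosome at chr2:1251566-1253883, 43.9 kb from TNNT3. TNNC2 (ENSSSCG00000007424), the calcium-binding troponin C of fast fibres, lies at chr17:48025621-48026762. ATP2A1 (ENSSSCG00000007805), the calcium pump SERCA1 of fast fibres, lies at chr3:18545064-18568312 and overlaps the end of RABEP2 by 49 bases in that annotation. ACTA1 (ENSSSCG00000010190), the skeletal alpha actin, lies at chr14:60412651-60415687.

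Each pig had between 22188911 and 25954816 read pairs counted on genes, and levels are given as counts-per-million (CPM) values scaled by the trimmed mean of M values (TMM). The TMM factors ran from 0.649 to 1.24 and were lower in pigs with a low RNA integrity number (RIN), with Pearson's r of 0.777 between RIN and the log2 factor over 41 pigs. Only 3 pigs had a RIN of 7 or below, namely Landrace pig 1 (6.5), Landrace pig 27 (6.6) and Duroc pig 10 (7.0), and the main results for the 5 genes are given with and without them. The skeletal muscle markers CKM, DES and MYOT reached a summed level of 25907.6 to 44754 CPM, while MB and TTN had no matching symbol.

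The 3 fast troponin genes were higher in the Landrace pigs. TNNT3 was at 7371 CPM in the lowest Duroc pig, 9408 in the median one and 17359.6 in the highest, against 6139, 12058 and 26569 in the Landrace pigs. The highest Duroc value belonged to Duroc pig 10, and 3 of the 28 Landrace pigs lay above it. Without the 3 pigs of low RIN 12 of the remaining Landrace pigs lay above the highest Duroc pig. TNNI2 was at 4624, 6365 and 14438 CPM in the Duroc pigs and at 3711, 7563 and 18776 CPM in the Landrace pigs. TNNC2 was at 6472, 8664 and 16407 CPM in the Duroc pigs and at 5259, 9778 and 22452 CPM in the Landrace pigs. For each troponin gene the ranges of the breeds overlapped, with 24, 23 and 20 of the 28 Landrace pigs above the Duroc median for TNNT3, TNNI2 and TNNC2.

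ATP2A1 was at 2428 CPM in the lowest Duroc pig, 6368 in the median one and 7848 in the highest, and at 1925, 6628 and 8233 CPM in the Landrace pigs. The Duroc and Landrace pigs covered almost the same range for this gene, and the lowest value of each breed came from a pig with a RIN of 7 or below. These ATP2A1 values are unstranded counts. By the strand sum described below, the lowest, median and highest were 12489.8, 17238 and 26403 CPM in the Duroc pigs. In the Landrace pigs they were 7290.1, 17094 and 22986 CPM. ACTA1 was at 80967.5, 99119 and 113551 CPM in the Duroc pigs and at 73873, 106684 and 149043 CPM in the Landrace pigs. Skeletal actin alone held 6.81 to 13.1% of the counts of a pig, and 12 Landrace pigs lay above the highest Duroc pig. On the log2 CPM scale the SD over the 41 pigs was 0.44 for TNNT3, 0.49 for TNNI2, 0.44 for TNNC2, 0.44 for ATP2A1 and 0.24 for ACTA1, beside a median of 0.34 over the 11146 genes. ACTA1 was the steadiest of the 5, and 22.5% of the tested genes had a smaller SD.

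**Figure D1:**
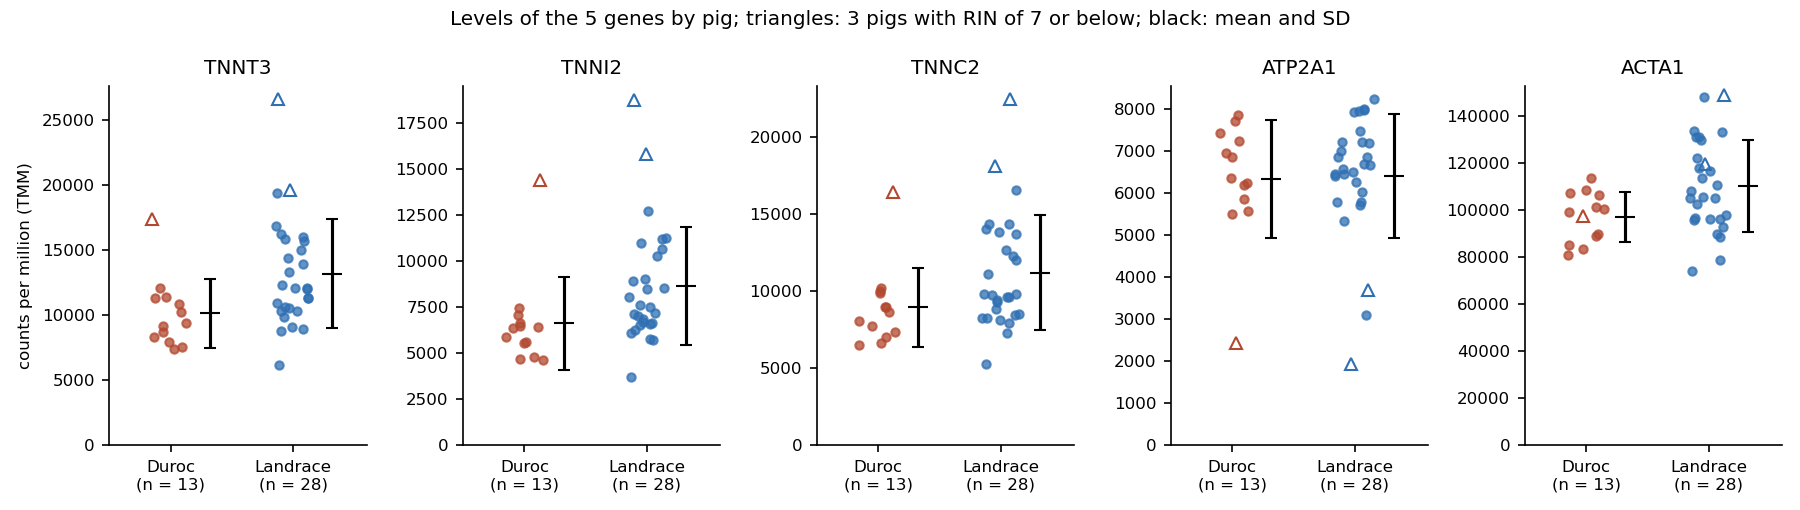
TMM-scaled CPM of the 5 genes in the 13 Duroc and 28 Landrace pigs, with 1 point per pig, triangles for the 3 pigs with a RIN of 7 or below, and black bars for the mean and SD of each breed. The triangles are the highest points of their breed in the 3 troponin panels and lie at or near the bottom of the ATP2A1 panel, and the breeds overlap in each panel.

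The breeds were compared in a model with FCR, RIN, age, breed and batch (edgeR quasi-likelihood test, Benjamini-Hochberg FDR over 11146 genes, threshold 0.1), in which 33.1% of all genes tested were called for breed. Of the 5 genes 4 were called, and all 4 were higher in Landrace, a direction called for 15.6% of all genes, with 17.5% called lower. TNNT3 was 1.52-fold higher in Landrace (log2 0.60 ± 0.13 SE, FDR = 0.00108), TNNI2 1.46-fold (0.55 ± 0.14, FDR = 0.0049) and TNNC2 1.45-fold (0.53 ± 0.13, FDR = 0.00295). ACTA1 was 1.30-fold higher (log2 0.38 ± 0.11 SE, FDR = 0.0115). The coefficient of ATP2A1 was 0.31 with a 95% interval from -0.03 to 0.66 and an FDR of 0.18, so that no breed difference was called and a difference of the size seen for TNNT3 lay inside the interval. In whole muscle, more fibres of a type and more RNA per fibre cannot be told apart.

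Scaling by library size alone moved the median breed coefficient of all genes from -0.0024 to -0.18 and the split of the calls from 1737 higher and 1955 lower to 534 higher and 3596 lower. Under it the 3 troponin genes kept their calls, with log2 differences of 0.43 for TNNT3, 0.37 for TNNI2 and 0.36 for TNNC2, but the ACTA1 difference of 0.20 was no longer called (FDR = 0.12). Leaving out each pig in turn gave log2 differences of 0.56 to 0.63 for TNNT3, 0.50 to 0.59 for TNNI2, 0.49 to 0.58 for TNNC2 and 0.34 to 0.44 for ACTA1, and these 4 genes stayed called each time. Without the 3 pigs of low RIN the differences were 0.64, 0.64, 0.59 and 0.39 in the same order, all called, and that of ATP2A1 was 0.16 (FDR = 0.339). Median FCR was 1.94 in the Duroc and 2.1 in the Landrace pigs, and median age was 148 and 154.5 days. With age left out of the model the 4 differences were 0.50, 0.47, 0.42 and 0.31. With FCR left out they were 0.51, 0.44, 0.45 and 0.34, and with RIN left out 0.81, 0.82, 0.77 and 0.42. All these were called, and ATP2A1 was called in none of these fits.

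Without any covariate, the difference of mean log2 CPM (Landrace minus Duroc) was 0.36 for TNNT3 (two-sided permutation p = 0.012), 0.37 for TNNI2 (p = 0.023), 0.30 for TNNC2 (p = 0.0422), 0.17 for ACTA1 (p = 0.035) and 0.01 for ATP2A1 (p = 0.937). Adjusted over these 5 comparisons, the p was 0.0527 for each of the first 4 and 0.937 for ATP2A1. The permutations did not keep pigs within their batch. Within batches 2, 3, 4 and 5 the TNNT3 difference was 0.37, 0.35, 0.57 and 0.59, and those of TNNI2 (0.37 to 0.59), TNNC2 (0.29 to 0.52) and ACTA1 (0.15 to 0.25) were likewise positive in all 4. ATP2A1 was lower in Landrace in batches 2, 3 and 4 (-0.03, -0.04 and -0.09) and higher in batch 5 (0.19). Batch 1 held 1 Duroc pig only and gives no such value.

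Markers of other cell types also differed between the breeds. In the same model 3 of 4 endothelial markers tested were called lower in Landrace, with a summed level of 52.0 to 156.7 CPM in Duroc and 29.7 to 130.9 CPM in Landrace. Of the smooth muscle markers 2 of 3 were lower (74.4 to 257.3 and 74.1 to 214.7 CPM), of the fibroblast markers 2 of 6 (572.3 to 4253 and 561.9 to 12360.6 CPM), of the adipocyte markers 1 of 2 (9.88 to 113.2 and 10.5 to 144.3 CPM) and of the leukocyte markers 1 of 6 (14.0 to 58.4 and 8.93 to 74.9 CPM), beside 17.5% of all genes. The leukocyte marker was CSF1R, whose strand sum, a second way of counting described below, was not called (FDR = 0.123). No marker of these lists was called higher, and none of the 2 erythrocyte markers was called (6.15 to 91.8 and 12.4 to 313.7 CPM), although HBB was called higher on strand sums (log2 1.11, FDR = 0.0986). Of the 3 skeletal muscle markers 1, CKM, was called higher in Landrace (log2 0.24, FDR = 0.0545), beside 15.6% of all genes, and none lower. PLIN1 and LEP of adipocytes, TAGLN of smooth muscle and HBM of erythrocytes were at 0 counts in at least 1 pig, TAGLN having 0 to 7 counts without regard to strand and 305 to 3163 as a strand sum. The part of these cells in the troponin and actin differences was not tested.

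The troponin genes fell with RNA integrity in the unstranded counts, while ATP2A1 rose there but not in its strand sum (coefficient -0.0922, FDR = 0.483). In the same model 51.8% of all genes were called for RIN, and 4 of the 5 genes were among them. The troponin genes fell as RIN rose, a direction called for 27.9% of all genes, by 0.50 ± 0.09 SE on the log2 scale per RIN unit for TNNT3 (FDR = 4.74e-05), by 0.65 ± 0.10 for TNNI2 (FDR = 2.77e-06) and by 0.56 ± 0.09 for TNNC2 (FDR = 8.1e-06). ATP2A1 rose by 0.66 ± 0.14 per unit (FDR = 0.000257), a direction called for 23.9% of all genes. ACTA1 had a coefficient of -0.09 with a 95% interval from -0.26 to 0.07 (FDR = 0.367).

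Landrace pig 27 had the highest TNNT3, TNNI2 and TNNC2 of all pigs, at 2.20, 2.48 and 2.30 times the Landrace median, and the lowest ATP2A1, at 0.29 times that median. Duroc pig 10 had the highest value of its breed for each troponin gene (1.85, 2.27 and 1.89 times the Duroc median) and the lowest for ATP2A1 (0.381 times). Landrace pig 1 stood at 1.62, 2.10 and 1.85 times the Landrace median for the troponin genes, at 0.558 times for ATP2A1 and highest of all pigs for ACTA1 (1.397 times). Without these 3 pigs the RIN coefficient was -0.36 for TNNT3 (FDR = 0.134), -0.37 for TNNI2 (FDR = 0.14), -0.40 for TNNC2 (FDR = 0.0902), 0.18 for ATP2A1 (FDR = 0.408) and 0.02 for ACTA1 (FDR = 0.949), so that only TNNC2 kept its call, in a set where 1929 genes were called. Without the 6 pigs with a RIN below 7.5 none of the 5 genes was called, with FDR values from 0.192 to 0.851 and 1092 genes called in all, while the coefficients were -0.387, -0.423 and -0.443 for TNNT3, TNNI2 and TNNC2, 0.167 for ATP2A1 and 0.0653 for ACTA1. Both subsets were chosen after the data were seen.

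Across the 41 pigs, Pearson's r between log2 CPM and RIN was -0.708 for TNNT3, -0.76 for TNNI2, -0.744 for TNNC2, 0.619 for ATP2A1 and -0.406 for ACTA1. The permutation p was 1e-05 for each troponin gene, which is the smallest that 100000 permutations can give, 0.00034 for ATP2A1 and 0.00872 for ACTA1, and over the family of 20 correlations of the 5 genes with RIN, FCR, age and the total count the adjusted p was 5e-05, 0.00085 and 0.0194. Spearman's rho was -0.589 (p = 8e-05, adjusted 0.000533), -0.629 (p = 1e-05, adjusted 0.0002), -0.6 (p = 6e-05, adjusted 0.000533), 0.326 (p = 0.0377, adjusted 0.0942) and -0.308 (p = 0.05, adjusted 0.111) in the same order. Without the 2 pigs farthest from the median RIN, r was -0.586, -0.635, -0.628, 0.388 and -0.264. The troponin genes kept r of -0.541, -0.562 and -0.571 in the 38 pigs with a RIN above 7, whereas r was 0.144 for ATP2A1 and -0.322 for ACTA1 (adjusted permutation p = 0.149). By library size alone r of ACTA1 with RIN was 0.363 (adjusted permutation p = 0.0466), and with the strand sum r of ATP2A1 was -0.328. Within batches 2, 3 and 5, r was -0.736, -0.313 and -0.766 for TNNT3, -0.836, -0.286 and -0.789 for TNNI2, -0.815, -0.349 and -0.795 for TNNC2, 0.803, 0.274 and 0.72 for ATP2A1, and -0.547, 0.0982 and -0.253 for ACTA1. The sign was the same in all 3 batches for each gene except ACTA1, and the other batches held fewer than 6 pigs.

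By library size alone the median RIN coefficient of all genes was 0.30 per unit against -0.01 with TMM, and the calls split into 6225 higher and 882 lower against 2667 and 3108. The troponin genes still fell, by 0.19, 0.335 and 0.25 per unit for TNNT3, TNNI2 and TNNC2, ATP2A1 rose by 0.95, and ACTA1 turned to a rise of 0.21 that was called (FDR = 0.0151). In the Duroc pigs alone none of the 5 genes, and none of the 10509 genes tested, was called for RIN by edgeR, although 1824 genes had an unadjusted p under 0.05. The coefficients in those 13 pigs were -0.428 for TNNT3, -0.753 for TNNI2, -0.584 for TNNC2, 1.12 for ATP2A1 and 0.234 for ACTA1. Erythrocyte markers moved with RIN too, with 2 of 2 tested called lower (27.9% of all genes), and 3 of 6 fibroblast markers were called higher as RIN rose (23.9% of all genes). Of the other lists, 1 of 3 smooth muscle markers (CNN1) and 1 of 6 leukocyte markers (CD3E) were called lower, the skeletal muscle marker DES was called lower and MYOT higher, and no endothelial or adipocyte marker was called. CD3E was not called on strand sums (FDR = 0.12). With the 3 pigs of low RIN left out no marker of these lists and no erythrocyte marker was called, and the same 3 fibroblast markers, COL3A1, LUM and PDGFRA, were, where 7.45% of all genes were called higher and 9.81% lower. Their part in the relation was not tested.

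**Figure D2:**
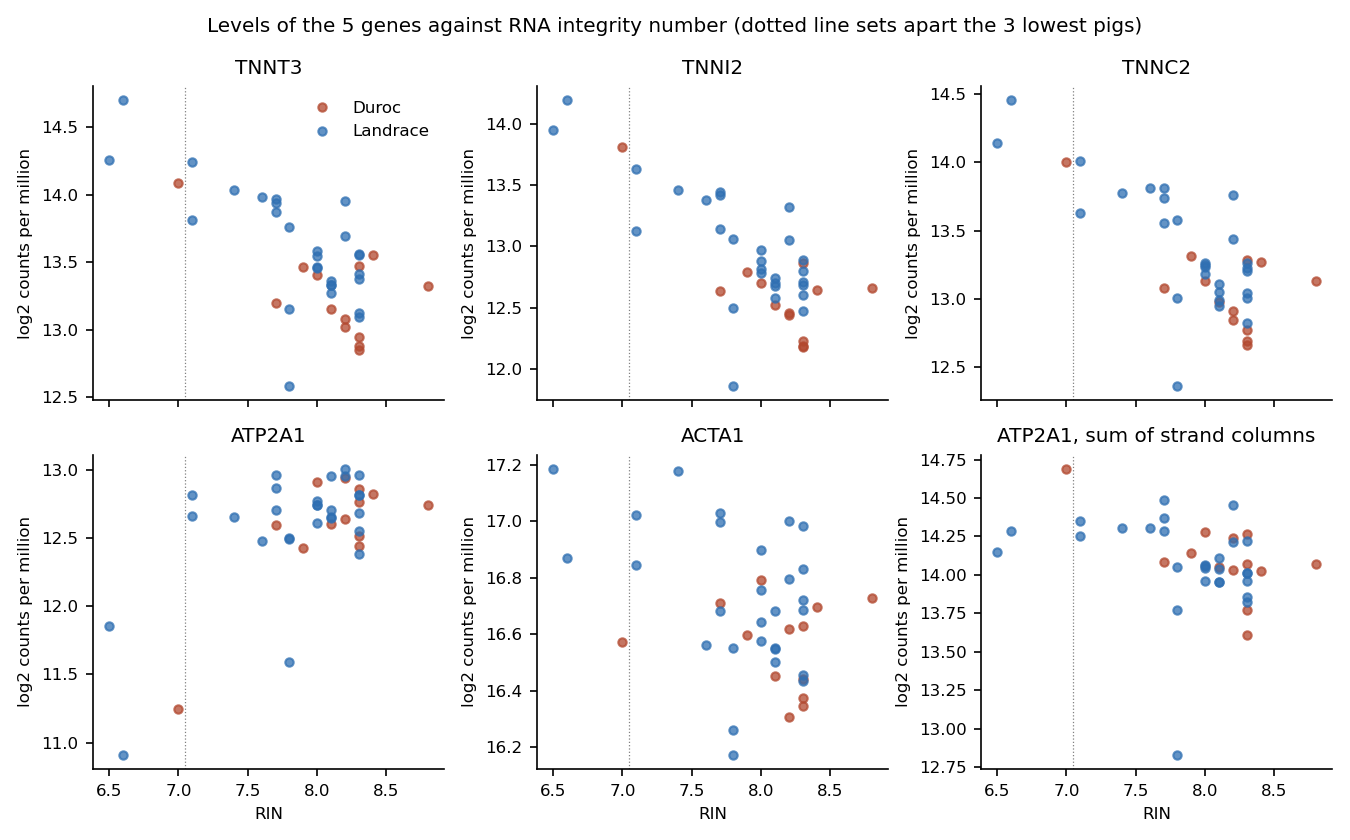
Log2 CPM of the 5 genes, and of ATP2A1 counted as the sum of its strand columns, against RIN in the 41 pigs, with 1 point per pig coloured by breed and a dotted line that sets apart the 3 pigs with a RIN of 7 or below. Troponin levels fall along the axis, while ATP2A1 is low in those 3 pigs and in Landrace pig 8 in the counts without regard to strand and only in Landrace pig 8 in the strand sum.

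The rise of ATP2A1 with RIN depended on how its read pairs were counted. The libraries were unstranded, and the counts used above ignore strand, so a pair that falls where genes on opposite strands overlap is counted for neither of them. The 2 further columns of each file count by strand, and their sum gives such a pair to both genes. For the other 4 genes the strand sum was 1.00 times the unstranded count in each pig, but for ATP2A1 it was 2.52 times in the median pig and 10.9 times in the pig with the largest ratio. The pairs in excess matched those of RABEP2 to within 0.00757% summed over the pigs, the next closest gene differing by 27.5%, so these pairs fell where both genes are annotated. RABEP2, a gene of endosome fusion, had 72 to 294 pairs of its own in the unstranded counts, while ATP2A1 had 27718 to 236319. A single shared pair cannot be assigned to either gene in these counts, and whose RNA the shared pairs came from was not tested.

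The unstranded column held 39.7% of the strand sum of ATP2A1 in the median pig. In the 3 pigs with a RIN of 7 or below it held 9.19 to 20.4%, and in the other 38 it held at least 28.2%, so these groups of pigs did not overlap. Over the 41 pigs this share had an r of 0.799 with RIN (permutation p = 1e-05, the smallest possible) and a rho of 0.681 (p = 2e-05), with 0.683 when the 2 pigs farthest in RIN were left out and 0.879, 0.546 and 0.774 within batches 2, 3 and 5. As a strand sum, ATP2A1 reached 12489.8 to 26403 CPM in the Duroc pigs and 7290.1 to 22986 CPM in the Landrace pigs. With the strand sum for this gene alone, its RIN coefficient was -0.09 (FDR = 0.483) in place of 0.66, and its breed difference was 0.12 (FDR = 0.545). Duroc pig 10, the lowest Duroc pig in the unstranded count, was the highest of all pigs in the strand sum. The comparison by strand sum for this gene alone was chosen after the data were seen.

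FCR, the trait of the study, showed no called relation with any of the 5 genes. The study's text writes the ratio both as feed over gain and as gain over feed, and the labelled values of 1.83 to 2.25 are above 1, as feed over gain is for a growing pig, so they were read that way. No sign of a coefficient is given a meaning for feed efficiency. In the model 0.0% of all genes were called for FCR by edgeR, with 968 of 11146 genes and 3 of the 5 at an unadjusted p under 0.05. DESeq2 called 5 genes and limma with voom 0, none of them among these 5. The coefficients per 0.1 of FCR were -0.11 ± 0.05 SE for TNNT3, -0.13 ± 0.05 for TNNI2, -0.10 ± 0.05 for TNNC2, -0.02 ± 0.06 for ATP2A1 and -0.07 ± 0.04 for ACTA1. The 95% intervals were -0.21 to -0.01, -0.23 to -0.02, -0.20 to -0.01, -0.15 to 0.11 and -0.16 to 0.01, and the FDR was 0.55, 0.535, 0.559, 0.95 and 0.634. The count of 3 at an unadjusted p under 0.05, which were the troponin genes, depended on the setting. It was 0 with the 3 pigs of low RIN left out (p = 0.0798, 0.134 and 0.127 for TNNT3, TNNI2 and TNNC2 by edgeR), without the 6 pigs with RIN below 7.5, with RIN left out of the model, by library size alone and in the Duroc pigs alone. It was 1 without the filter on low counts and in the Landrace pigs alone, 2 on strand sums and 4 with age left out of the model, and the lowest FDR of the 5 genes under any of these settings was 0.333. In the 38 pigs with a RIN above 7 the coefficients were -0.0969, -0.0868, -0.0839, -0.0911 and -0.0844 in the order above. The ATP2A1 coefficient was thus -0.0911 in place of -0.02, and it was -0.0821 with its own strand sum (edgeR, FDR = 0.645) and -0.0782 with strand columns for all genes. Plain correlations with FCR were between -0.0601 and 0.0429 (r, 41 pigs), with rho between -0.159 and 0.0292, permutation p from 0.714 to 0.939 for r and from 0.317 to 0.931 for rho, and adjusted p from 0.866 to 0.939 for r and from 0.423 to 0.931 for rho. In the Duroc pigs r was -0.531, -0.436, -0.477, 0.232 and -0.127 for TNNT3, TNNI2, TNNC2, ATP2A1 and ACTA1, and among the Landrace it was -0.132, -0.114, -0.126, -0.26 and -0.388. With Duroc pig 10 left out, a choice made after the data were seen, the 5 Duroc values were -0.441, -0.298, -0.362, -0.219 and -0.126, so that of ATP2A1 changed sign. Without the 2 pigs farthest from the median FCR, r over all pigs lay between -0.227 and 0.143, and in the 38 pigs with a RIN above 7 it was 0.0645, 0.107, 0.0463, -0.266 and -0.0967. Within batches 2, 3 and 5 the r values ran from -0.208 to -0.0517, from -0.563 to -0.0841 and from -0.108 to 0.248.

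The slope on FCR was also allowed to differ between the breeds, and 0.0% of all genes were called for that difference by edgeR. Of the 11146 genes 582 had an unadjusted p under 0.05, none of them a troponin gene, ATP2A1 or ACTA1. DESeq2 called 1 gene and limma with voom 0, none of them among these 5. The unadjusted p of ACTA1 was 0.0543 by edgeR. Under the other settings it ran from 0.0153 by library size alone to 0.194 without the 6 pigs with RIN below 7.5, and was also under 0.05 by DESeq2 (0.0264), by limma with voom (0.041), on strand sums (0.0471) and with some single pigs left out, Landrace pig 11 among them, with no FDR under 0.592. The differences in slope (Landrace minus Duroc, per 0.1 of FCR) were between -0.16 and -0.03, with the lowest for ACTA1 (-0.16, 95% interval -0.33 to 0.00). Fitted in the Duroc pigs alone, the FCR coefficients were -0.104 for TNNT3, -0.0996 for TNNI2, -0.0678 for TNNC2, 0.0098 for ATP2A1 and 0.0029 for ACTA1. In the Landrace pigs alone they were -0.107, -0.11, -0.0967, -0.0741 and -0.127, and none was called in either breed by edgeR.

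**Figure D3:**
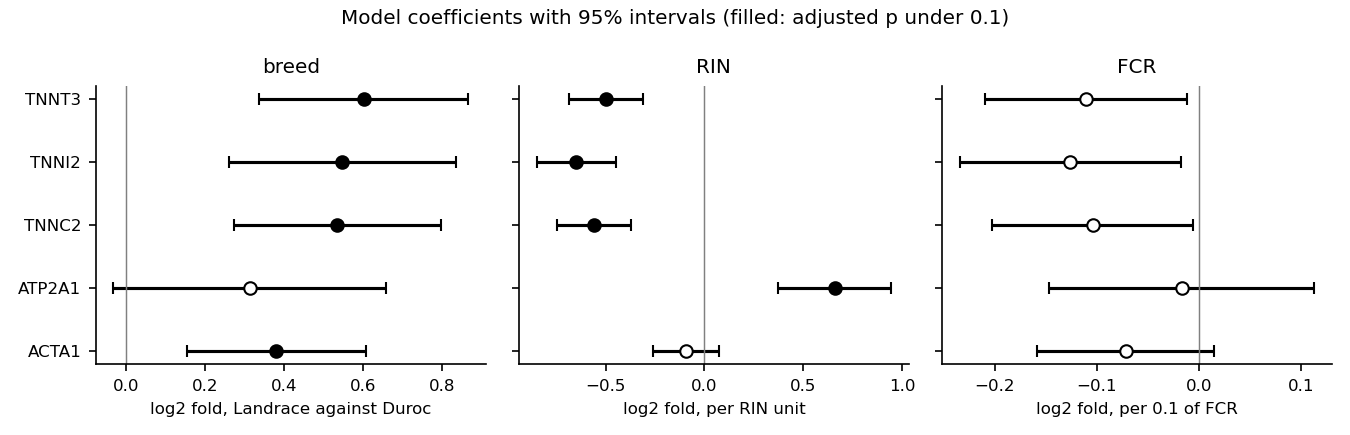
Coefficients of the 5 genes for breed (log2 Landrace against Duroc), RIN (log2 per unit) and FCR (log2 per 0.1) from the edgeR model of 41 pigs, with 95% intervals and filled points for an FDR under 0.1. Breed coefficients are all above 0, the RIN coefficient of the unstranded ATP2A1 count is opposite in sign to those of the troponin genes, and no FCR point is filled. With the strand sum of ATP2A1, which is not drawn, its RIN coefficient was -0.0922 (edgeR, FDR = 0.483).

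Slaughter batch was called for TNNT3 (F test over 4 batch terms, FDR = 0.0704) and TNNC2 (FDR = 0.0805), beside 24.1% of all genes, and not for TNNI2 (FDR = 0.137), ACTA1 (FDR = 0.259) or ATP2A1 (FDR = 0.416). The median TNNT3 level was 10636.5 CPM in batch 2, 10326 in batch 3, 11373 in batch 4 and 15698.5 in batch 5, and the lowest and highest pigs of these batches overlapped widely. With the other terms held, batch 5 exceeded batch 2 by 0.38 on the log2 scale for TNNT3 and by 0.41 for TNNC2. The batch calls were not stable. By DESeq2, with batch as a number, without RIN in the model and without the 3 pigs of low RIN, TNNI2 was called as well (FDR = 0.0766, 0.0748, 0.0224 and 0.0965), as it was when Duroc pig 2 or 7 or Landrace pig 2 or 22 was left out. In the other direction, leaving out Landrace pig 1, 20, 24 or 28 or Duroc pig 9 ended both the TNNT3 and the TNNC2 call. Leaving out Landrace pig 11 ended that of TNNC2, with FDR values over all pigs left out of 0.0253 to 0.132 for TNNT3 and 0.0286 to 0.156 for TNNC2. Both calls also ended by library size alone (FDR = 0.328 and 0.383), without the filter on low counts (0.112 and 0.121) and with age left out (0.13 and 0.177). They ended too without the 2 pigs with a RIN below 7 (0.116 and 0.125) and without the 6 below 7.5 (0.127 and 0.12). Age was called for none of the 5 genes and for 1.76% of all genes by edgeR, with none of the 5 at an unadjusted p under 0.05, and DESeq2 and limma with voom also called none of them. The coefficients per 10 days were between -0.19 and -0.08. The correlations with age lay between -0.139 and 0.238 (r, adjusted p from 0.244 to 0.504), and those with the total count were -0.598, -0.685 and -0.659 for TNNT3, TNNI2 and TNNC2, 0.749 for ATP2A1 and -0.289 for ACTA1. In the 38 pigs with a RIN above 7 the latter were -0.318, -0.395, -0.401, 0.155 and -0.303.

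The troponin genes varied together almost without exception. Pearson's r over 41 pigs was 0.98 between TNNT3 and TNNI2, 0.983 between TNNT3 and TNNC2 and 0.983 between TNNI2 and TNNC2, with rho of 0.976, 0.965 and 0.947. The permutation p was 1e-05 for each r and each rho, the smallest possible, and 2e-05 after adjustment over the 10 pairs of the 5 genes. Without the 2 pigs farthest from the median of the first gene r was 0.972 to 0.977, within batches 2, 3 and 5 it was 0.971 to 0.991, within Duroc 0.952 to 0.982 and within Landrace 0.982 to 0.986. After FCR, RIN, age, breed and batch were removed r was still 0.951 to 0.955, and by library size alone it was 0.941 to 0.953.

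ACTA1 followed the troponin genes less closely, and whether it did depended on the scaling. With TMM, r was 0.709 with TNNT3, 0.701 with TNNI2 and 0.684 with TNNC2 (permutation p of 1e-05, 1e-05 and 2e-05, adjusted 2e-05, 2e-05 and 3.33e-05), rho was 0.708, 0.715 and 0.7 (adjusted p of 2e-05, 2e-05 and 3.33e-05), and r was 0.66 to 0.706 without the 2 farthest pigs. Within batches 2, 3 and 5, r with TNNT3 was 0.861, 0.719 and 0.473, and on the residuals r was 0.442, 0.486 and 0.414 for the 3 genes. By library size alone the same r values were 0.0599, -0.0269 and -0.0375.

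ATP2A1 had an r of -0.25 with TNNT3 (permutation p = 0.114, adjusted 0.126), -0.333 with TNNI2 (p = 0.0342, adjusted 0.0489), -0.302 with TNNC2 (p = 0.0542, adjusted 0.0677) and 0.0768 with ACTA1 (p = 0.633). The rho values were 0.129, 0.104, 0.0834 and 0.292, with adjusted p of 0.527, 0.572, 0.601 and 0.0903, so that r and rho differed in sign for the troponin genes. The negative r rested on the pigs of low RIN, since in the 38 other pigs r was 0.48, 0.469, 0.435 and 0.441. Within batch 2 r was -0.424, -0.545 and -0.52 with TNNT3, TNNI2 and TNNC2, within batch 3 it was 0.757, 0.754 and 0.712, and within batch 5 it was -0.553, -0.646 and -0.601. Batch 3 held 9 pigs, and Landrace pig 8 was the lowest of them for ATP2A1 and each troponin gene. With the strand sum of ATP2A1 r over the 41 pigs was 0.71, 0.721, 0.723 and 0.52.

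**Figure D4:**
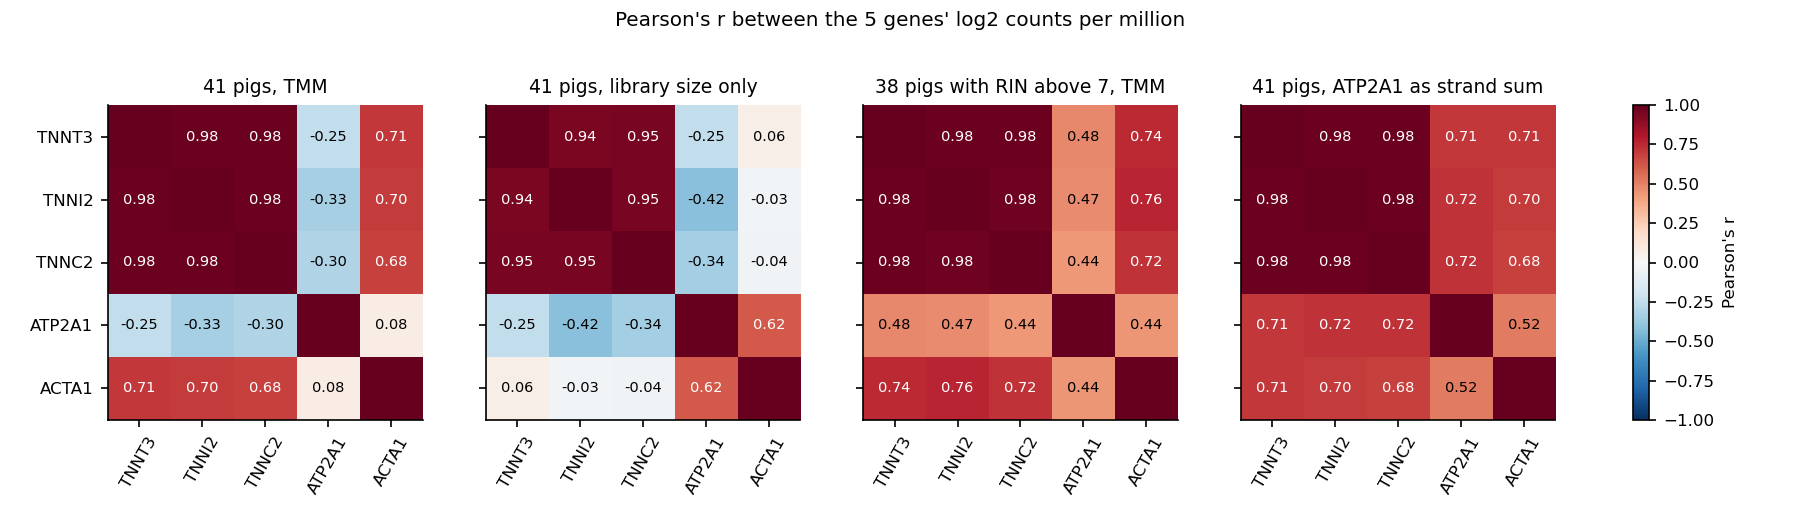
Pearson's r between the log2 CPM of each pair of the 5 genes under 4 settings, from left to right TMM scaling in 41 pigs, library size alone in 41 pigs, TMM in the 38 pigs with a RIN above 7, and TMM with ATP2A1 counted as its strand sum. The troponin block stays at 0.94 or above in each panel, while the ATP2A1 row and the ACTA1 row change with the setting.

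Among the other tested genes, those with the highest mean r to the 5 genes over the 41 pigs were PDLIM7 (mean r 0.672), a PDZ and LIM protein of the cytoskeleton, ALDOA (0.668) and GAPDH (0.663) of glycolysis, MACROD1 (0.668), a hydrolase of ADP-ribose marks, and AK1 (0.665), the muscle adenylate kinase. The lowest were LPL (-0.62), the lipoprotein lipase, ME2 (-0.597), the mitochondrial malic enzyme, PGAM1 (-0.589), a phosphoglycerate mutase, SEL1L (-0.589) of protein quality control in the endoplasmic reticulum, and TLK1 (-0.584), a kinase. PDLIM7 had an r of 0.953, 0.978 and 0.959 with TNNT3, TNNI2 and TNNC2. With the unstranded ATP2A1 count r was -0.289 for PDLIM7, -0.116 for ALDOA, 0.0447 for MACROD1, -0.247 for AK1 and -0.0118 for GAPDH. In the 38 pigs with a RIN above 7 these values were 0.458, 0.6, 0.464, 0.488 and 0.545. For TNNT3 and TNNC2 the 3 nearest genes were PDLIM7, AK1 and PSMC5, a proteasome subunit, and for TNNI2 they were PDLIM7, AK1 and EDF1, a transcriptional coactivator (r = 0.939). ACTA1 was nearest to CACNG1 (r = 0.842), a subunit of the muscle calcium channel, EEF1A2 (0.804), the muscle form of a translation elongation factor, and MACROD1 (0.796). The nearest genes of the unstranded ATP2A1 count were ZZEF1 (r = 0.899), ENSSSCG00000023010 (0.888) and BLTP2 (0.886), and in the 38 pigs with a RIN above 7 these r values were 0.598, 0.591 and 0.593. All these r values share the same pigs and TMM factors and are given as a description.

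The other fast-fibre genes were described from a fixed list. Of 10 listed genes 7 matched by symbol and 6 were tested, and 4 of the 6 were called higher in Landrace and none lower, beside 15.6% and 17.5% of all genes, with a median log2 difference of 0.41 beside -0.0024 over all genes. MYOZ1, a Z-disc protein of fast fibres, averaged 2811 CPM in the 13 Duroc pigs (SD 507) and 3115 CPM in the 28 Landrace pigs (SD 538, model log2 0.37, FDR = 0.00117). MYBPC2, the fast myosin-binding protein C, averaged 6665 (SD 1390.3) and 7894 CPM (SD 1528, log2 0.54, FDR = 0.00261). For RIN 2 of the 6 were called higher and 1 lower, beside 23.9% and 27.9% of all genes, and without the 3 pigs of low RIN only MYOZ1 was called, as lower, where 7.45% of all genes were called higher and 9.81% lower. None was called for FCR or age by edgeR.

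The values of ACTN3, the alpha actinin of fast fibres, and MYL11, the regulatory light chain of fast myosin, also changed with the column counted. The ACTN3 coefficient for RIN was 0.41 (FDR = 0.00293) in the unstranded counts and -0.03 (FDR = 0.806) in the strand sum, of which the unstranded column held 20.0 to 57.4%, and its excess matched that of CTSF to within 0.00151%. MYL11 was listed at 0 in the unstranded counts of all 41 pigs and was therefore not tested there, yet its strand sum was 115776 to 271780 pairs, matching the excess of SEPTIN1 to within 0.00451%. In the fit on strand sums, which tested 11688 genes, MYL11 was higher in Landrace (log2 0.47, FDR = 0.00846) and fell with RIN (by 0.49 per unit, FDR = 6.23e-05). Its r with TNNT3, TNNI2 and TNNC2 on that count was 0.938, 0.94 and 0.949. MYH1, MYH2 and MYH4, the fast myosin heavy chains, had no matching symbol and were not analysed here.

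Of the 7 slow-fibre counterparts tested, 2 were called lower in Landrace (17.5% of all genes) and none higher, and 5 fell with RIN (27.9% of all genes). Without the 3 pigs of low RIN 2 of these 5, TNNI1 and TNNC1, were still called for RIN, where 9.81% of all genes were called lower. The median log2 breed difference of the list was -0.60. TNNI1, the slow troponin I, averaged 1038.7 CPM in the Duroc pigs (SD 408) and 873 CPM in the Landrace pigs (SD 524, model log2 -0.79, FDR = 0.0514) and had a RIN coefficient of -0.999 (FDR = 0.000312). ATP2A2, the calcium pump of slow fibres, averaged 653 (SD 288) and 535 CPM (SD 296, log2 -0.73, FDR = 0.0904). The log2 breed differences of TNNT1 and TNNC1 were -0.64 and -0.60 (FDR = 0.139 and 0.166), and that of the cardiac actin ACTC1 was 0.01 (FDR = 0.982). TNNC1 had a RIN coefficient of -0.87 (FDR = 0.0026), in the direction of the fast troponin genes.

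Levels of a fast gene and its slow counterpart showed little correlation across pigs for the troponins and the pump. Over 41 pigs r was -0.043 for TNNT3 and TNNT1, 0.1 for TNNI2 and TNNI1, 0.0637 for TNNC2 and TNNC1 and -0.0225 for ATP2A1 and ATP2A2 (permutation p from 0.531 to 0.886, adjusted over 5 pairs 0.886 each), with rho of -0.0253, -0.00174, 0.0293 and -0.243 (adjusted p from 0.31 to 0.992). Without the 2 pigs farthest in the slow gene r was 0.0777, 0.241, 0.223 and 0.228. Within batch 3 the 4 values were -0.708, -0.691, -0.65 and -0.851, and within batches 2 and 5 they lay between -0.0344 and 0.344. Batch 3 held 9 pigs, among them Landrace pig 8, described below, and r without that pig was not computed. ACTA1 and ACTC1 had an r of 0.522 (permutation p = 0.00039, adjusted 0.00195), a rho of 0.397 (p = 0.0106, adjusted 0.0531), an r of 0.417 without the 2 farthest pigs and 0.567, 0.352 and 0.285 within batches 2, 3 and 5, with 0.0582 among the Duroc and 0.631 among the Landrace. These 5 correlations were added after the data were seen.

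Landrace pig 8, with a RIN of 7.8, stood apart on both sides. It had the lowest TNNT3, TNNI2 and TNNC2 of all pigs, at 0.509, 0.491 and 0.538 times the Landrace median, and an ATP2A1 of 0.466 times that median. Its TNNT1, TNNI1, TNNC1 and ATP2A2 were the highest of all pigs, and its fast to slow count ratio was 1.498 for TNNT3/TNNT1, where Landrace pig 10 had 34.1. In the strand sum Landrace pig 8 also had the lowest ATP2A1 of all pigs, at 7290.1 CPM.

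The count ratio of a fast gene to its slow counterpart needs no scaling between libraries. TNNT3/TNNT1 ran from 3.296 to 11.8 in the Duroc pigs (median 6.54) and from 1.498 to 34.1 in the Landrace pigs (median 10.3). TNNI2/TNNI1 had medians of 6.50 and 11.8, TNNC2/TNNC1 of 8.88 and 13.4, ATP2A1/ATP2A2 of 9.54 and 13.2, and ACTA1/ACTC1 of 2485.3 and 2848.1. These ratios used the unstranded count, which for ATP2A1 held 9.19 to 44.75% of its strand sum. Over all pigs ATP2A1/ATP2A2 ran from 1.769 to 53.3, and on strand sums from 4.17 to 141.2. On the log2 scale the Landrace pigs were higher by 0.62 for TNNT3/TNNT1 (two-sided permutation p = 0.0225), 0.74 for TNNI2/TNNI1 (p = 0.00685), 0.63 for TNNC2/TNNC1 (p = 0.0167), 0.33 for ATP2A1/ATP2A2 (p = 0.254) and 0.12 for ACTA1/ACTC1 (p = 0.519). Adjusted over the 15 tests of the ratios with breed, RIN and FCR, the p for breed was 0.112, 0.103, 0.112, 0.763 and 0.854, so none passed 0.1. Here too pigs were permuted across batches. Without the 3 pigs of low RIN the differences of the troponin ratios were 0.71, 0.83 and 0.73, with adjusted p of 0.0719, 0.0703 and 0.0703. Within batches 2 to 5 the TNNI2/TNNI1 difference was 1.49, 0.62, 0.54 and 0.68, the TNNT3/TNNT1 difference was 1.31, 0.36, 0.48 and 0.66, and the TNNC2/TNNC1 difference was 1.22, 0.55, 0.36 and 0.55, all positive.

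None of the ratios had a called relation with RIN. For the troponin ratios r with RIN was -0.089 for TNNT3/TNNT1, -0.0288 for TNNI2/TNNI1 and -0.046 for TNNC2/TNNC1 (permutation p from 0.576 to 0.857, adjusted 0.854 to 0.864), with rho of -0.162, -0.0884 and -0.152 (p from 0.311 to 0.584) and r of -0.117, -0.0634 and -0.096 without the 2 pigs farthest in RIN. Within batches 2, 3 and 5 these r values lay between -0.147 and 0.162. For ATP2A1/ATP2A2 and ACTA1/ACTC1, r with RIN was 0.101 and 0.236 (p = 0.522 and 0.138, adjusted 0.854 and 0.519), rho was 0.0934 and 0.26 (p = 0.562 and 0.102), r without the 2 farthest pigs was 0.04 and 0.153, and r within the batches lay between -0.0332 and 0.381. On strand sums r of ATP2A1/ATP2A2 with RIN was -0.311, of opposite sign and not called. For FCR, r of the 5 ratios was between -0.0277 and 0.107 (adjusted p from 0.854 to 0.864), with rho between 0.0339 and 0.157 (p from 0.322 to 0.833), r between -0.0844 and 0.0646 without the 2 pigs farthest in FCR, and r between -0.333 and 0.412 within batches 2, 3 and 5. Within Landrace r with FCR was -0.276, -0.295, -0.296, -0.237 and 0.181 for TNNT3/TNNT1, TNNI2/TNNI1, TNNC2/TNNC1, ATP2A1/ATP2A2 and ACTA1/ACTC1. Within Duroc it was -0.09, 0.0272, 0.0629, -0.0313 and -0.19.

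**Figure D5:**
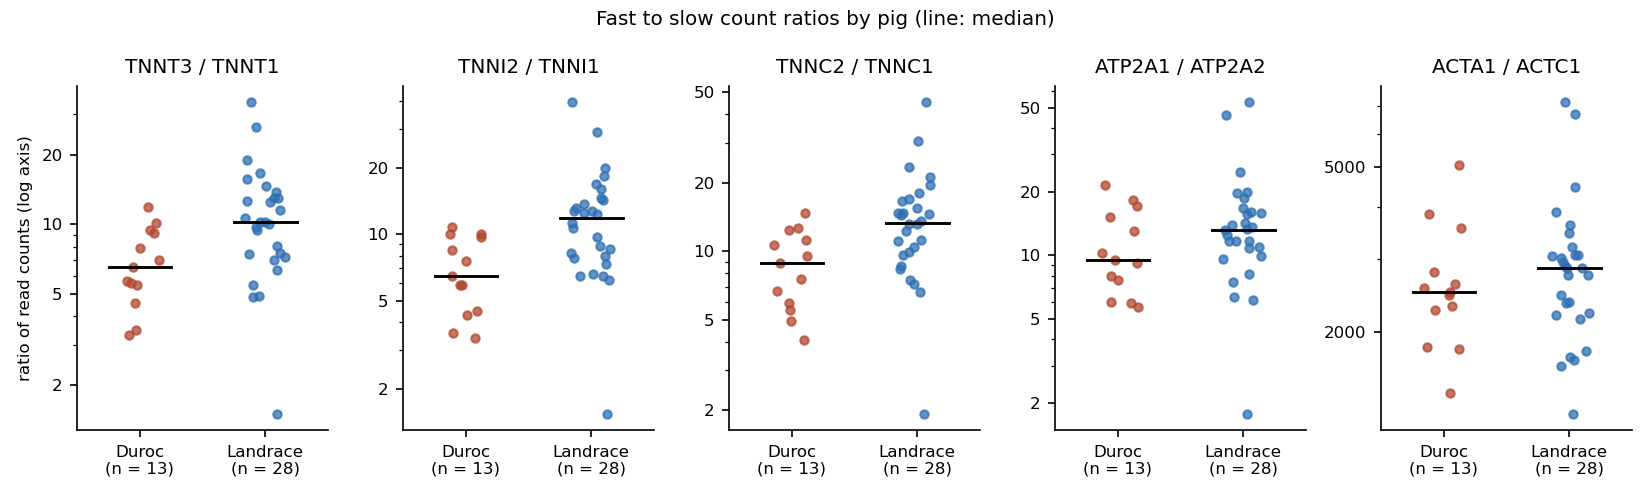
Ratio of unstranded read counts of each gene to its slow or cardiac counterpart in the 13 Duroc and 28 Landrace pigs on a log axis, with 1 point per pig and a line at the median of each breed. The Landrace medians are higher in each panel, and Landrace pig 8 is the lowest point of the first 4 panels.

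Thin-filament partners were called in part. Of 11 tested genes of the thin filament and actin assembly, 3 were called higher in Landrace and 1 lower, beside 15.6% and 17.5% of all genes, with a median log2 difference of 0.13. CAPZA2, a capping protein of the actin filament end, was higher in Landrace (mean 145 CPM, SD 17.6, against 134 CPM, SD 38.2, in Duroc, model log2 0.43, FDR = 0.00197), and KBTBD13, a ubiquitin ligase adaptor of muscle, was lower (log2 -1.17, FDR = 0.0048) on only 6 to 128 counts per pig. For RIN 3 of the 11 were called higher and 1 lower, beside 23.9% and 27.9% of all genes, and 1 of the 3, KLHL40, was not called in the fit on strand sums (FDR = 0.227). TPM2, a tropomyosin, fell by 0.48 per RIN unit (FDR = 3.43e-06), and NEB, the giant nebulin protein along the thin filament, rose by 0.49 (FDR = 9.1e-06), and both were still called without the 3 pigs of low RIN (FDR = 0.0973 and 0.069). In that fit 2 of the 11 were called higher and 1 lower, beside 7.45% and 9.81% of all genes. CAPZA2 and KLHL40 were no longer called (FDR = 0.255 and 0.122), while XIRP1, an actin-binding repeat protein, was called higher (coefficient 1.66, FDR = 0.0637) against -0.14 (FDR = 0.743) in all pigs. Batch was called for 9 of the 11, beside 24.1% of all genes.

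Among the other actins, 4 of 5 were tested. ACTA2, the smooth muscle actin, was lower in Landrace (log2 -1.27, FDR = 0.00932), and the breed difference of the cytoplasmic actin ACTB was -0.22 (FDR = 0.244). ACTB and ACTC1 fell with RIN, by 0.47 (FDR = 0.000191) and 0.47 (FDR = 0.0622) per unit, but without the 3 pigs of low RIN neither was called (coefficients -0.319 and -0.391, FDR = 0.216 and 0.519), and ACTC1 was not called in the fit on strand sums (FDR = 0.123). SLN, the sarcolipin peptide that restrains the calcium pump, was the only one of 6 listed pump regulators with a matching symbol. It was higher in Landrace (mean 5459 CPM, SD 1811, against 4599.8 CPM, SD 1367, in Duroc, model log2 0.45, FDR = 0.034) and fell with RIN by 0.47 per unit (FDR = 0.000925), but without the 3 pigs of low RIN its coefficient was -0.216 and not called (FDR = 0.436).

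Of 19 tested transcription factors and cofactors of the fast, slow and actin programmes, 4 were called higher and 2 lower in Landrace. The shares of all genes were 15.6% and 17.5%, and the median log2 difference of the list was 0.08. PPARGC1A was 1 of the 2 lower (log2 -0.71, FDR = 0.0808), and it fell with RIN in the 41 pigs (coefficient -0.83, FDR = 0.00172). SOX6, a repressor of slow-fibre genes, averaged 48.9 CPM in the Duroc pigs (SD 7.12) and 59.9 CPM in the Landrace pigs (SD 12.9, model log2 0.50, FDR = 0.00899). SRF, which drives actin genes, averaged 98.2 (SD 18.2) and 128.4 CPM (SD 25.1, log2 0.43, FDR = 0.0195). For RIN 6 of the 19 were called higher and 5 lower, beside 23.9% and 27.9% of all genes, with TEAD1, a factor that binds muscle gene promoters, rising by 0.69 per unit (FDR = 1.01e-06) and MYOG, the myogenic factor myogenin, falling by 0.61 (FDR = 3.24e-05). TEAD1 was still called without the 3 pigs of low RIN (coefficient 0.401, FDR = 0.043) and MYOG was not (-0.322, FDR = 0.256), and in that fit 2 of the 19 were called higher and none lower, beside 7.45% and 9.81% of all genes. On strand sums MEF2C, 1 of the 5 lower, was not called for RIN (FDR = 0.221) and SIX4 was called higher (FDR = 0.0714). None of the genes of these lists was called for FCR by edgeR. TMOD4, ACTG2 and PROX1 were at 0 counts in at least 1 pig and were not tested, TMOD4 having 0 to 10 counts without regard to strand and 376 to 733 as a strand sum.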

How the data were processed

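The deposited values are whole read-pair counts per Ensembl gene, 1 file per pig. The authors trimmed unstranded paired-end reads with Trimmomatic 0.39, aligned them to Sscrofa11.1 and counted them with STAR 2.7.1a, without normalization. The unstranded column was used, as in the study, and the sum of the strand columns as an alternative. Between 6.79 and 8.89% of the pairs of a pig fell on more than 1 gene and were not counted.

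Genes were filtered by filterByExpr and fitted with edgeR 4.0.16 (R 4.3.3, legacy quasi-likelihood, TMM) on FCR, RIN, age, breed and batch. DESeq2 1.42.0 and limma 3.58.1 with voom were alternatives. Log2 CPM for likeness used a prior count of 2. Single values were tested with 100000 permutations (NumPy 2.4.6). The steps were tested on simulated data. The p-values measure the spread between pigs.

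The 5 genes and the gene lists were chosen with earlier results of these data known. Genes named beyond the 5 are their counterparts, the 3 nearest by r to each, the 5 with the highest and lowest mean r, at most 2 per list with the smallest p for breed and 2 for RIN, FCR or age, and list members at 0. CTSF, SEPTIN1, RABEP2, CSF1R, CNN1, CD3E, HBB, CKM, DES, MYOT, COL3A1, LUM, PDGFRA, KLHL40, XIRP1, MEF2C, SIX4 and PPARGC1A were named after their values were seen. Symbols matched 14857 of 25880 identifiers, and MYLPF was looked up as MYL11.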

Additional observations from a re-analysis of the deposited data

Results flagged for a closer look

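Read pairs of ATP2A1 outside the column used for the comparisons stood out. In the median pig 60.3% of the pairs in the sum of the strand columns were absent from the unstranded column, while the strand sum of the other 4 genes was 1.00 times their unstranded count. These pairs lay in columns that no comparison used as its main count, where no control sample exists. The RNA from which they came was not tested.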

How the results depend on the processing

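Of 680 values recomputed under other settings 596 kept their direction and side of the threshold, and of 1230 values without 1 pig each 1206 did. No paired analysis was possible because the pigs carry no shared replicate number from the labels. The cause of the changes below was not tested. By library size alone the correlations were -0.0269 for TNNI2 and ACTA1, -0.0375 for TNNC2 and ACTA1, and 0.363 with RIN, 0.0453 with FCR and 0.52 with the total count for ACTA1. The correlations of ATP2A1 with TNNT3, TNNI2 and TNNC2 became 0.152, 0.0456 and 0.0735 without the 2 pigs with a RIN below 7, 0.48, 0.469 and 0.435 without the 3 pigs with a RIN of 7 or below, 0.71, 0.721 and 0.723 with the strand sum, and 0.2002, 0.125 and 0.183 on residuals. With the strand sum the correlation of ATP2A1 was -0.328 with RIN and -0.355 with the total count, and that of ATP2A1/ATP2A2 with RIN was -0.311. Without the 2 pigs the correlations with FCR were -0.0241, -0.027, -0.0601 and 0.028 for TNNT3, TNNI2, TNNC2 and ATP2A1. Without the 3 pigs 5 of 20 correlations passed the threshold in place of 9, and 3 of 15 ratio tests in place of 0. In the model the RIN coefficient of ACTA1 was 0.21 by library size, 0.0683 without the 2 pigs, 0.23 in the Duroc pigs alone, 0.0159 without the 3 pigs and 0.0653 without the 6 pigs with a RIN below 7.5, and ranged from -0.14 to 0.0657 without 1 pig each, the latter without Landrace pig 1. The RIN coefficient of ATP2A1 was -0.0523 with strand columns for all genes and -0.0922 with its own strand sum. For RIN 0 of the 5 genes were called by edgeR in the Duroc pigs alone, 1 without the 3 pigs and 0 without the 6. The FCR coefficient was 0.0345 (ATP2A1, library size), 0.0098 and 0.0029 (ATP2A1 and ACTA1, Duroc alone), and -0.0696 to 0.0159 for ATP2A1 without 1 pig each. The age coefficient of ATP2A1 was 0.0202 without RIN in the model, 0.0217 in the Duroc pigs, 0.0214 without the 3 pigs and 0.0197 without the 6, and -0.11 to 0.00087 without 1 pig each, and that of TNNI2 was 0.0664 in the Duroc pigs. For batch 0 of the 5 genes were called by library size, without the filter, without age, without the 2 pigs and without the 6 pigs, 3 by DESeq2, with batch as a number, without RIN and without the 3 pigs, and 0 to 3 without 1 pig each. Over all genes batch was called for 3426 of 11146 by library size, 2196 of 20225 without the filter, 2130 without the 2 pigs and 2336 without the 6. It was called for 3287 of 10765 by DESeq2, 3804 without RIN and 2405 without the 3 pigs. The difference of FCR slopes was 0.0204 and 0.0135 (TNNT3 and TNNI2, batch as a number), 0.0857, 0.13 and 0.084 (TNNT3, TNNI2 and TNNC2, RIN left out), and without 1 pig each -0.0646 to 0.0251, -0.0817 to 0.0336 and -0.10 to 2.02e-05. Over all genes, age was called for 0 to 814 genes under other settings against 196, batch for 1773 without age and 1611 as a number against 2686, RIN for 1929 without the 3 pigs, 1092 without the 6 and 0 in the Duroc pigs alone (where batch was also called for 0) against 5775, and FCR and the difference of FCR slopes for 5 and 1 genes with DESeq2 against 0. Without 1 pig each, age was called for 0 to 484 genes, with 0 when Duroc pig 13 was left out, and batch for 1528 to 3254. Depth did not limit the 5 genes, the lowest count being 27718.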
